A study of Saccharomyces cerevisiae with 16 samples.

Results

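Most amino acids that budding yeast makes for itself come from a small set of carbon skeletons. Aspartate feeds threonine and methionine, 3-phosphoglycerate feeds serine, erythrose 4-phosphate and phosphoenolpyruvate feed the aromatic amino acids, and glutamate supplies nitrogen to nearly all of them. Many of the enzyme genes are activated by Gcn4, a bZIP transcription factor whose own translation increases when amino acids run short, a response known as general amino acid control. Trimethylation of lysine 4 of histone H3 (H3K4me3) is placed behind initiating RNA polymerase II by the Set1 complex and marks the 5′ ends of transcribed genes.

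The 55 genes described here encode many, but not all, of the enzymes of amino acid biosynthesis outside the leucine branch, together with *GCN4*. They are drawn from 6002 protein-coding genes on the 16 nuclear chromosomes. They were chosen by name, in 8 pathway lists and the regulator: 6 histidine, 6 arginine, 8 lysine, 13 aromatic, 7 sulfur, 5 aspartate and threonine, 4 serine and 5 nitrogen assimilation genes. H3K4me3 had been mapped by CUT&RUN, which cuts out and sequences the DNA around an antibody-bound histone mark, in 8 libraries of strain BY4741. This laboratory strain has no functional *HIS3*, *LEU2*, *MET17* or *URA3*, none of which is among the 55 genes. The window of *HIS3* was nevertheless covered by peaks in all 8 libraries, with summits nearest to the starts of *MRM1* and *DED1*, and *MET17* had no peak in any. All strains carried a synthetic locus. The synHPRT1 locus holds human *HPRT1* with its flanks, and in synHPRT1R the order of the same bases is reversed without complementing them. The YAC libraries came from strains that keep the locus on an episome with a *LEU2* marker (a yeast artificial chromosome) and grew in SC-Leu, a synthetic medium without leucine: synHPRT1 YAC and synHPRT1R YAC, 2 replicates each. The integrated libraries came from strains with the locus integrated on chromosome XI and grown in YPD, a rich medium: synHPRT1 integrated and synHPRT1R integrated, 2 replicates each. Context, medium and marker therefore cannot be told apart. Replicates were separate clones or cultures of a strain. The study calls them biological in its figure legends and technical in its reporting summary. P-values therefore measure the spread between these libraries only, and the 4 libraries of a context came from 2 strains.

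A gene was taken as marked where a peak overlapped the window from 200 bp upstream of its start codon to its end. Peak height is the deposited fold enrichment at the summit of the highest such peak over the local background of the same library. Covered share is the percent of the window under peaks. The lists held 3463 to 4049 peaks, the fewest in synHPRT1R YAC replicate 1, whose median fold enrichment over nuclear peaks was also the lowest (1.86, against 2.04 to 2.36 in the other 7 libraries). For synHPRT1 YAC replicate 2 the labels disagree on the locus (its source name gives synHPRT1R), and its title and genotype were followed. No library made with a control antibody was analysed here. Heights were lower in YAC libraries across the genome, by a median of 0.17 on the log2 scale over 4040 genes with a peak in all 8 libraries, so each library was centred on its median gene and height differences are given relative to that shift. Without centring, 41 of the 49 testable members lay lower in YAC libraries. With it, 33 lay higher and 16 lower.

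Binding sites of the pathway regulators were searched for in the 300 bp from 250 bp before to 50 bp after each start codon, in the sacCer3 sequence from RefSeq. The core Gcn4 motif TGACTC, on either strand, was found at 26 of 55 members (47.3%), against 7.98% of 6001 promoters of this length, with 5 of 6 histidine genes, 3 of 6 arginine genes, 3 of 8 lysine genes, 5 of 13 aromatic genes and 3 of 4 serine genes holding it. These 26 genes had 30 such sites. The stretches below were chosen to show how the sites lay relative to the mark. They run 5′ to 3′ along the coding strand of the gene with the motif, or its complement GAGTCA, in capitals.
*TRP3*, chrXI:38259-38288, minus strand: tcaatggctcgtTGACTCattctaatctat
*THR1*, chrVIII:159325-159354, plus strand: aaatttgtgcaaGAGTCAtcatctcgaaaa
*HIS4*, chrIII:68515-68544, minus strand: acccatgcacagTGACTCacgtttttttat
*LYS12*, chrIX:187773-187802, minus strand: atattcttaagaTGACTCtaattagaggaa
*HIS5*, chrIX:142714-142743, plus strand: tcttggatctgtTGACTCacttcaattgat
*LYS1*, chrIX:420853-420882, minus strand: ttcagcgacaaaGAGTCAtaaagtcatcct
*ARG4*, chrVIII:141564-141593, minus strand: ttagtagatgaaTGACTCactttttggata
The *TRP3* and *THR1* sites, 123 and 101 bp before the start codon, lay under a peak in 4 of 4 YAC and 4 of 4 integrated libraries. The *HIS4* site shown, at 199 bp, lay under a peak in 3 YAC and 4 integrated libraries, the *LYS12* site in 1 YAC and 4 integrated libraries, and the *HIS5* site in 0 YAC and 2 integrated libraries. The *ARG4* site lay in the unmarked stretch upstream of the gene in all 8. A site was counted as under a peak only where the peak spanned the whole motif. No peak did so at the *LYS1* site shown (420865 to 420870), although the peak of synHPRT1R YAC replicate 1 ended inside it, at 420869. Of the 30 sites, 30.0% were under peaks in all 8 libraries and 16.7% in none, against 50.5% and 23.1% of the 511 sites in all promoters. No site was under a peak in every YAC and no integrated library, or the reverse.

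The sulfur genes are additionally controlled by Cbf1, which binds CACGTG, and by Met31 and Met32, which bind TGTGGC. The Cbf1 motif was found at 8 members (14.5%, against 2.92% of promoters), among them *MET10*, *MET14* and *MET16*, and the Met31 and Met32 motif on either strand at 8 (14.5%, against 7.82%), with the same 3 *MET* genes among them. The promoter of *MET16*, which encodes PAPS reductase in sulfate assimilation, held both of these and the Gcn4 motif close together and is shown for that reason, with the 3 motifs in capitals, the Met31 and Met32 motif as its complement (chrXVI:877583-877882, minus strand).
*MET16*: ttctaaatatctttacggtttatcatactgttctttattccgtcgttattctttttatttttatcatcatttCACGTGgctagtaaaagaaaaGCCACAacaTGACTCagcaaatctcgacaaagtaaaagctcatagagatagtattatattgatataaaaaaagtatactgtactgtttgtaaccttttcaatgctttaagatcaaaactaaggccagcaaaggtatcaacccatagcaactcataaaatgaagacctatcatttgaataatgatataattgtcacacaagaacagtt
A peak covered the Cbf1 motif of *MET16* in 4 YAC and 3 integrated libraries and its Gcn4 motif in 2 YAC and 1 integrated libraries. TCCNNNGGA, the core of sites bound by the lysine regulator Lys14, was found on either strand at 5 members (9.09%, against 3.4%), including *LYS1*, *LYS9* and *LYS12*. GATAAG, bound by the GATA factors of nitrogen regulation, was found at 11 (20%, against 14.7%). The *ARG1* promoter held GATAAG 62 bp before the start, under a peak in 3 YAC and 0 integrated libraries. A motif match describes the letters only.

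Of the 55 genes, 49 had a peak in all 8 libraries, against 67.3% of all genes, 5 in some, and *MET3* in none. Their marks sat mostly at the 5′ end. The median summit of the highest peak lay between the start codon and 500 bp downstream at 39 of the 49, between 200 bp upstream and the start at 3, further upstream at 6 and beyond 500 bp at 1. Over the 4040 genes with a peak in all 8 libraries, the same counts were 2116, 489, 1125 and 310. A peak with its own summit inside the gene window was present in all 8 libraries at 30 of 49 members, against 46.6% of the 4040 genes. The summit of the highest peak was closer to the start of the member than to that of any other gene in all 8 libraries at 33, in some at 13 and in none at 3. In the map of peaks around the start, 44 of 55 genes were covered at 100 bp downstream in all 4 YAC libraries and 45 in all 4 integrated libraries. The counts were 39 and 47 at 180 bp, 36 and 45 at 240 bp, and 23 and 21 at 440 bp. These differences were not tested or counted over all genes.

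**Figure D1:**
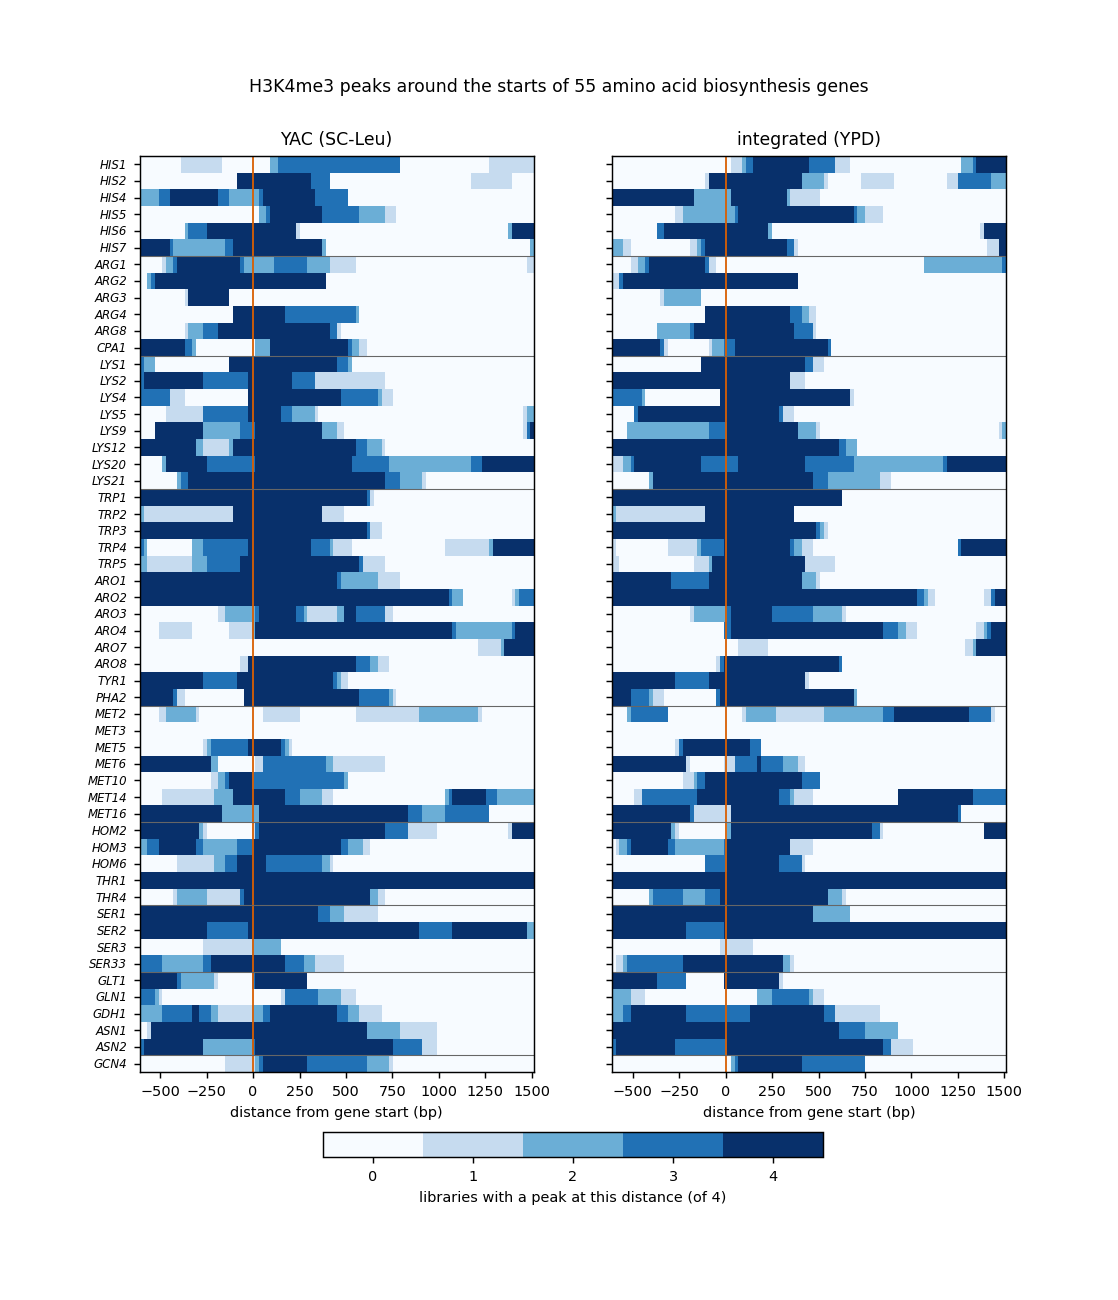
Peaks around the start codon of the 55 genes, ordered by pathway, with distance from the start in bp (horizontal, downstream positive) and shading for the number of YAC libraries (left) or integrated libraries (right) with a peak there. Most genes were covered just downstream of the start in all 4 libraries of both contexts, *MET3* had no peak in any library, and most *MET2* peaks lay toward the 3′ end of the gene.

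Peak height over the 49 genes ranged from 1.32 to 4.75 and rested on 103 to 461 fragments at the summit, which gives a counting error of 9.85% to 4.66%. The members' median was 1.83 to 2.18 in YAC libraries and 2.18 to 2.37 in integrated libraries. In each library this was below the median of the 4040 genes, at percentiles of 28.3 to 38.2 in YAC and 27.7 to 32.4 in integrated libraries. Counting only peaks with the summit in the window (30 members, 1884 genes), the members' median stood at percentiles of 31.3 to 39.9 in YAC and 29.5 to 39.1 in integrated libraries. Their windows were covered over a larger share than usual, with a median of 41.3% in YAC and 42.9% in integrated libraries, against 32.1% and 34.0% over all genes with a peak.

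The highest members were *THR1* (homoserine kinase), *TRP1* (phosphoribosylanthranilate isomerase), *MET16*, *ARO2* (chorismate synthase) and *LYS12* (homoisocitrate dehydrogenase). *THR1* had heights of 4.75, 4.15, 3.21 and 4.41 in YAC libraries, against 4.74, 4.59, 4.34 and 4.57 in integrated libraries. Each run of 4 values gives synHPRT1 replicates 1 and 2 and then synHPRT1R replicates 1 and 2. For several of these the summit was on the neighbour's side. Relative to the start codon, the *TRP1* summits lay at -677 to -625 bp, closest to the start of the divergent *SOK1*. Those of *MET16* lay at -790 to -630 bp, near *NUT2* and *JIP5*, and those of *SER1* (phosphoserine aminotransferase) at -295 to -264 bp, nearest to the start of *FYV12*. A peak covered the whole window of *THR1* in all 8 libraries, with the summit outside the window, nearest to the divergent *MAS2*, in 6 of 8. *TRP5* (tryptophan synthase, 2.96 to 3.49 in YAC and 2.96 to 3.72 in integrated libraries) was the highest of the genes whose summit lay in the window in all 8 libraries. The lowest members with a peak in all libraries were *HOM6* (homoserine dehydrogenase), *HIS1* (ATP phosphoribosyltransferase), *MET6* (methionine synthase) and *ARO3*, with median heights of 1.64 to 1.69. Genes next to each other in the order of median height overlapped in their range over the 8 libraries, in every case.

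**Figure D2:**
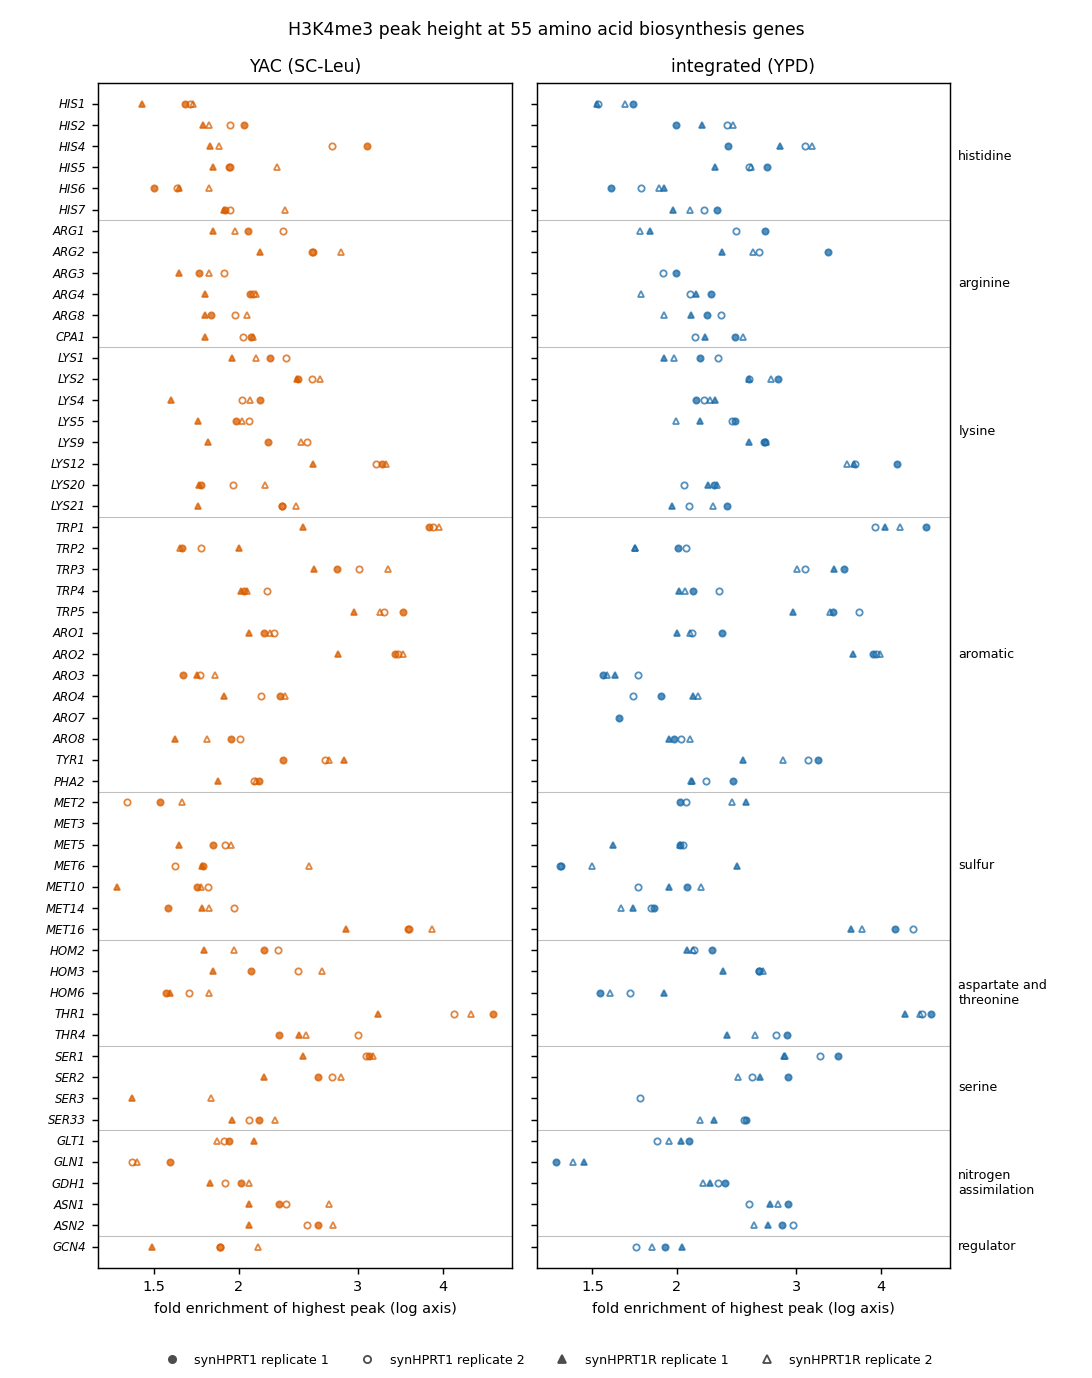
Fold enrichment of the highest peak in the window of each gene (log axis) in the 4 YAC libraries (left) and the 4 integrated libraries (right), with circles for synHPRT1, triangles for synHPRT1R, filled for replicate 1 and open for replicate 2. No point is drawn where a library had no peak. *THR1* reached 4.75 and 4.74, *GLN1* stayed at or below 1.58, and synHPRT1R YAC replicate 1 is often the lowest YAC point.

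YAC libraries were compared with integrated libraries to see whether H3K4me3 at these genes differed between cells on SC-Leu and cells on YPD. None of the 49 testable members passed the threshold in height (adjusted p under 0.05 in limma across 4040 genes), with 0.0248% of all genes called. The lowest adjusted p among them was 0.213. None of 54 passed in covered share, with 0.712% of 5196 genes called (0.135% higher and 0.577% lower), and the lowest adjusted p was 0.160. By presence, meaning a peak in every YAC library and no integrated one or the reverse, 0 of 55 members were called, against 0.4% of all genes (0.133% in YAC only and 0.267% in integrated only). Before adjustment 9 of 49 members had p under 0.05 in height (13.2% of all genes), 8 higher (7.2%) and 1 lower (5.97%) in YAC libraries. In covered share 9 of 54 did (9.31% of all genes), 6 higher (1.87%) and 3 lower (7.45%). The median difference was 0.07 over the members and 0.00 over all genes on the log2 scale, and -0.10 and -0.17 without centring. The 95% confidence interval of the difference lay between -1 and 1, a change of less than 2-fold either way, for all 49, and between -0.5 and 0.5 for 47, the exceptions being *MET6* and *ARO4*. Standard errors ran between 0.06 and 0.16, the widest at *HIS4*.

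**Figure D3:**
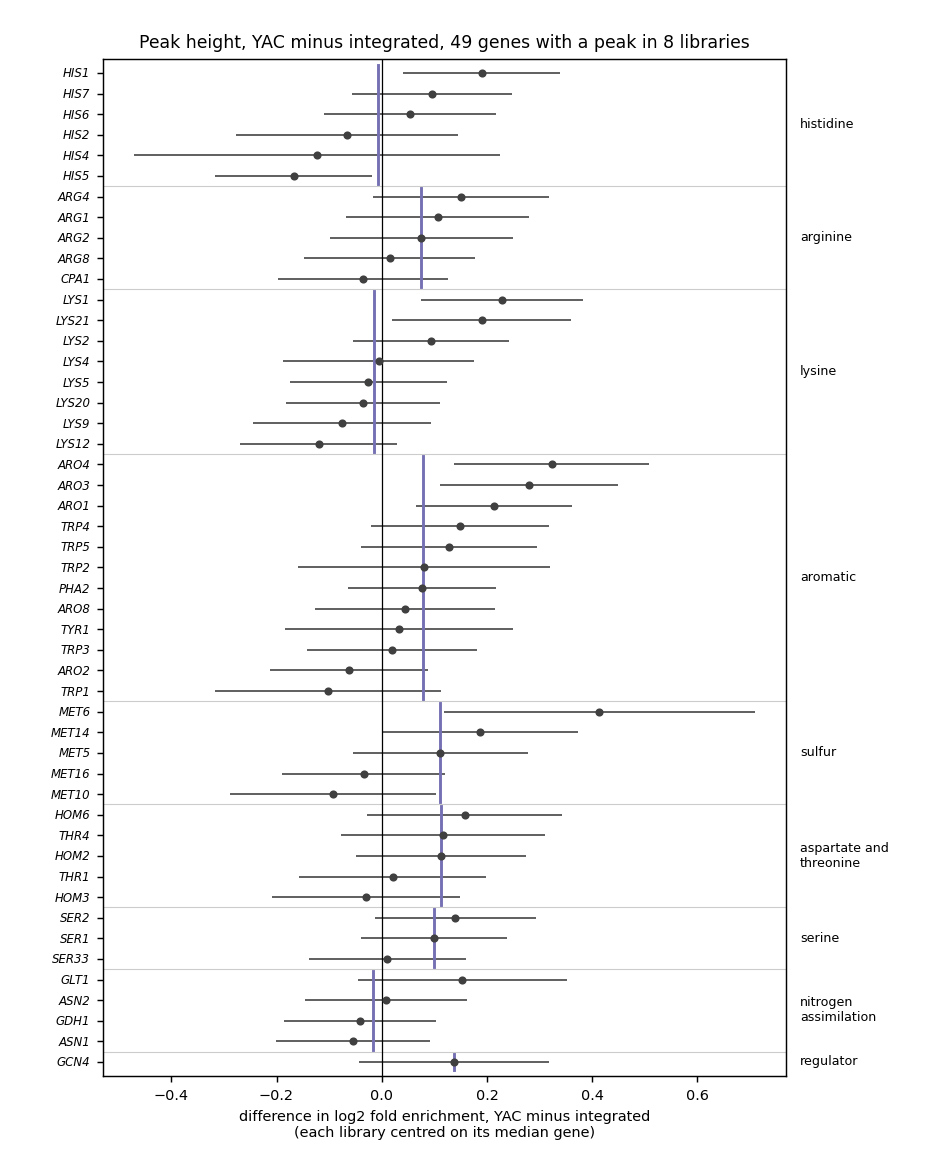
Difference in log2 fold enrichment, YAC minus integrated, for the 49 genes with a peak in all libraries, with 95% confidence intervals from limma and the median of each list as a vertical line. Points right of 0 are higher in YAC libraries relative to the median gene. The points spread between -0.17 (*HIS5*) and 0.41 (*MET6*), and none passed the threshold after adjustment.

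Of 12 testable aromatic genes, from the longest list, 10 were higher in YAC libraries, with a median difference of 0.08 (-0.10 without centring), and 0 passed. *ARO3* and *ARO4* encode the isozymes of DAHP synthase, the entry to the shikimate pathway, inhibited by phenylalanine and by tyrosine. *ARO4* had heights of 2.30, 2.16, 1.90 and 2.34 in YAC libraries, against 1.89, 1.72, 2.11 and 2.15 in integrated libraries. Centred on the library median, all 4 YAC values lay above all 4 integrated values (difference 0.32, SE 0.08, adjusted p = 0.213). Among all genes 4.65% were separated in this direction. Both synHPRT1R YAC values came from a peak that reached into the adjacent *HIS7*, where it was the highest peak as well, and in synHPRT1R YAC replicate 1 its summit lay 1534 bp from the *ARO4* start, beyond the gene and nearest to the start of *HIS7*. Without that library the *ARO4* difference was 0.37 (adjusted p = 0.143). With synHPRT1 libraries alone, the *ARO4* difference was 0.52 (adjusted p = 0.0380), and with synHPRT1R libraries alone it was 0.13 (adjusted p = 0.753). The interaction of context and locus did not pass at *ARO4* (-0.38, SE 0.13, adjusted p = 0.483). *ARO3* had 1.66, 1.75, 1.73 and 1.85 in YAC libraries, against 1.55, 1.75, 1.62 and 1.58 in integrated libraries, and was likewise separated after centring (difference 0.28, adjusted p = 0.214). The gene pair is 64.3% identical in bases. *ARO1*, the pentafunctional enzyme that follows them, was the other separated aromatic gene (0.21, adjusted p = 0.258), named after its values were seen. *TRP3*, whose product carries out separate steps of the tryptophan branch, had the smallest height difference of the list (0.02, 95% interval -0.14 to 0.18).

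In covered share, 3 aromatic genes were separated with YAC above, as were 0.905% of all genes. *TRP5* was covered over 34.1%, 34.2%, 33.3% and 34.1% of its window in YAC libraries, against 25.4%, 21.8%, 29% and 21.6% in integrated libraries. The YAC values were nearly the same and the integrated ones more scattered. The difference was 9.47 percentage points (SE 1.83, adjusted p = 0.160), and 11.1 points with an adjusted p of 0.0288 without synHPRT1R integrated replicate 1. *TRP3* had 53.9%, 49.8%, 48.9% and 49.9% in YAC libraries, against 43.6%, 41.6%, 42.4% and 45.5% in integrated libraries (7.36 points, adjusted p = 0.184). *ARO4* had 82%, 83.7%, 95% and 84.5%, against 71.9%, 65%, 79.4% and 70.8% in integrated libraries (14.5 points, adjusted p = 0.245). The 95% belongs to the peak shared with *HIS7*, and without that library the difference was 12.4 points (adjusted p = 0.329). *TRP5* and *ARO4* were the closest of all members to the threshold in covered share and in height. *TRP5* was named after its values were seen.

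**Figure D4:**
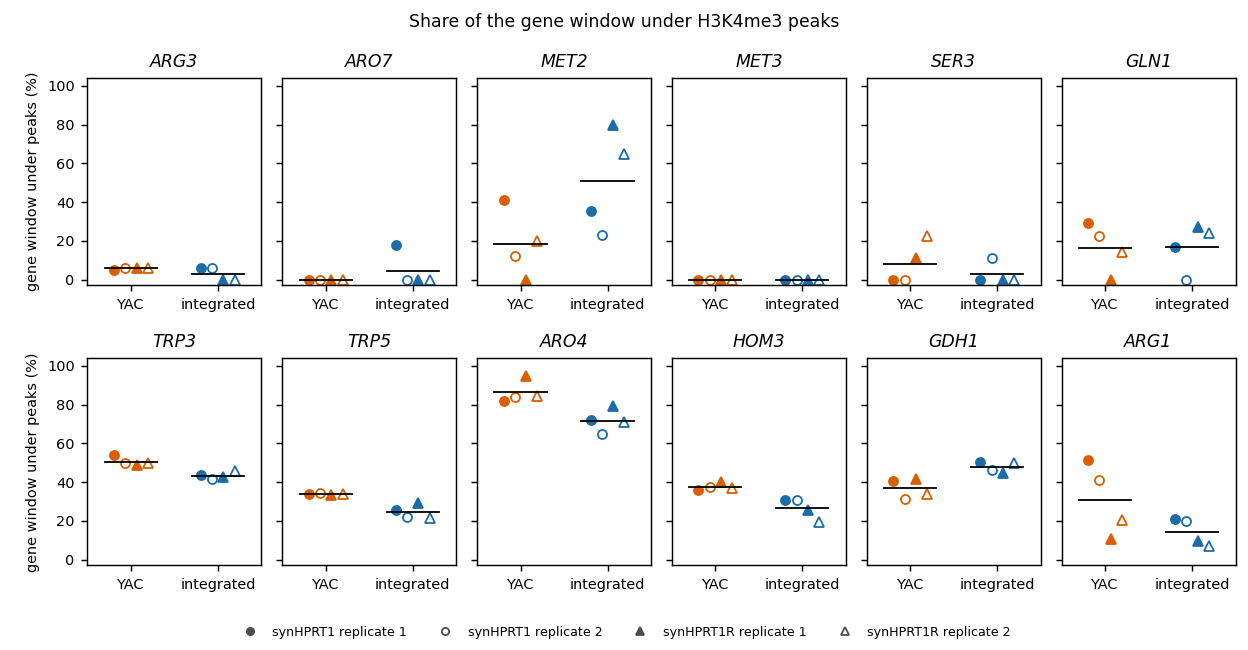
Percent of the gene window under H3K4me3 peaks in the YAC libraries (left of each panel) and integrated libraries (right), with circles for synHPRT1, triangles for synHPRT1R, filled for replicate 1, open for replicate 2 and a line for the mean of 4. The upper row shows the 6 genes without a peak in at least 1 library, and the lower row *TRP3*, *TRP5*, *ARO4* and *HOM3*, where all YAC values lay above, *GDH1*, where all lay below, and *ARG1*, where the groups overlap.

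*ARO7*, chorismate mutase at the branch to phenylalanine and tyrosine, had a peak in 0 of 4 YAC libraries and in synHPRT1 integrated replicate 1 alone, with a height of 1.64 over 18.1% of the window. The tyrosine and phenylalanine branch genes *TYR1* and *PHA2* and the aminotransferase gene *ARO8* had peaks in all 8 libraries, with differences of 0.03 to 0.08.

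Among the sulfur genes, *MET2* and *MET6* stood apart from the others. *MET2* encodes homoserine O-acetyltransferase, which commits homoserine to methionine. It had heights of 1.53, 1.37 and 1.65 in 3 YAC libraries and no peak in synHPRT1R YAC replicate 1, against 2.02, 2.06, 2.53 and 2.41 in integrated libraries. The 3 YAC values were below all 4 integrated values without any centring. On that scale only 300 of 4040 genes were higher in YAC libraries, and the share of all genes separated downwards was not counted. Most *MET2* summits were not at the 5′ end, although the peak of synHPRT1R integrated replicate 1 ran from 117450 to 118773, over most of the gene. Summits lay 1105 to 1153 bp downstream of the start of this gene on chromosome XIV (117349 to 118809), nearer to the start of the downstream gene *BOR1*, except in synHPRT1 YAC replicate 2, where the summit lay at 115 bp. Covered share was 41.1%, 12.3%, 0.0% and 19.9% in YAC libraries, against 35.6%, 23.2%, 79.7% and 64.8% in integrated libraries, and these groups overlap (difference -32.5 points, SE 15, adjusted p = 0.583). The difference was -2.68 points in synHPRT1 libraries alone and -62.3 points in synHPRT1R libraries alone (adjusted p = 0.983 and 0.286). With the missing peak set to the lowest fold of its list, the height difference was -0.52 (95% interval -0.80 to -0.25, adjusted p = 0.204), and without synHPRT1R YAC replicate 1 it was -0.40 (adjusted p = 0.141). When only peaks with a −log10 q of at least 10 were kept, *MET2* had a peak in 0 of 4 YAC and 4 of 4 integrated libraries, the only member called by presence under any setting tried. The 0.4% of all genes called by presence was counted on unfiltered peaks, so it gives no background for this call. The share of all genes called under this filter is not given here, so how rare such a call is cannot be read from it.

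*MET6*, the methionine synthase, had the largest height difference of all members. Its heights were 1.77, 1.61, 1.76 and 2.54 in YAC libraries, against 1.35, 1.34, 2.46 and 1.5 in integrated libraries, so the groups overlap through synHPRT1R integrated replicate 1 (difference 0.41, SE 0.14, adjusted p = 0.275). Without that library the difference was 0.59 and passed (adjusted p = 0.0161). It also passed in synHPRT1 libraries alone (0.54, adjusted p = 0.0346). In 3 libraries, synHPRT1R integrated replicate 1 and synHPRT1R YAC replicates 1 and 2, the summit lay at -986 to -333 bp, on the side of the divergent *IES5*. The difference of 0.59 leaves out the integrated one of these and keeps the 2 YAC ones. The sulfate assimilation genes with a peak were *MET5* and *MET10* (sulfite reductase subunits), *MET14* (APS kinase) and *MET16*, with differences of -0.09 to 0.19. *MET16* had the smallest (-0.03, 95% interval -0.19 to 0.12). *MET3*, ATP sulfurylase on chromosome X (456239 to 457774), had no peak in its window in any library, as did 13.4% of all genes. Over the 5 testable sulfur genes the median difference was 0.11 (-0.07 without centring), with 3 higher and 2 lower.

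The histidine genes went both ways, 3 higher and 3 lower, with a median of -0.01 (-0.18 without centring). *HIS1*, the entry enzyme, had heights of 1.67, 1.70, 1.44 and 1.71 in YAC libraries, against 1.72, 1.53, 1.52 and 1.68 in integrated libraries, and was separated upwards only after centring (0.19, SE 0.07, adjusted p = 0.305). In synHPRT1R YAC replicate 1 its window was covered over 3.66%, against 60.7% to 63.9% in the other YAC and 28.2% to 58.4% in the integrated libraries, and the *HIS1* summit there lay upstream, at -223 bp. *HIS5*, histidinol-phosphate aminotransferase, had 1.93, 1.94, 1.83 and 2.27 in YAC libraries, against 2.72, 2.55, 2.28 and 2.58 in integrated libraries. It was the only member separated downwards after centring (-0.17, adjusted p = 0.335), as were 3.76% of all genes, and was named after its values were seen. *HIS6* had the smallest difference (0.05, 95% interval -0.11 to 0.22). *HIS4*, a trifunctional enzyme, had 3.10 and 2.75 in synHPRT1 YAC and 1.81 and 1.87 in synHPRT1R YAC libraries, against 2.38, 3.10, 2.84 and 3.17 in integrated libraries. Its context difference was lower in synHPRT1R than in synHPRT1 by 0.87 (SE 0.21, adjusted p = 0.232), the lowest adjusted p for the interaction among the members. In 5 libraries the highest peak had its summit at -1848 to -1617 bp, at the starts of *BIK1* and *RNQ1*, and these held the 5 highest values.

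Of the 5 testable arginine genes 4 were higher, with a median of 0.07 (-0.10 without centring). *ARG4*, argininosuccinate lyase, had the largest difference, with 2.08, 2.1, 1.78 and 2.12 in YAC libraries, against 2.25, 2.09, 2.13 and 1.77 in integrated libraries (0.15, 95% interval -0.02 to 0.32). *ARG8*, acetylornithine aminotransferase, had the smallest (0.02, 95% interval -0.15 to 0.18). *ARG3*, ornithine carbamoyltransferase, had heights of 1.75, 1.90, 1.63 and 1.81 in YAC libraries, against 1.99 and 1.91 in synHPRT1 integrated libraries and no peak in synHPRT1R integrated libraries. This peak ended upstream of the start codon and covered at most 6.16% of the window (difference 2.81 points, adjusted p = 0.639). *ARG1*, argininosuccinate synthetase, had 51.3%, 41.1%, 10.5% and 20.6% of its window covered in YAC libraries, against 21.1%, 20.1%, 9.64% and 6.84% in integrated libraries. Within each locus both YAC values exceeded both integrated values, and over all 8 libraries the groups overlap (16.5 points, SE 4.91, adjusted p = 0.402). The covered stretches differed in place. At 200 bp downstream of the *ARG1* start 3 YAC and 0 integrated libraries had a peak, and at 1240 bp 0 YAC and 2 integrated libraries did. These 2 were the synHPRT1 integrated libraries, whose highest *ARG1* peaks had summits at 1569 and 1567 bp, beyond the gene and nearest to the start of YOL057W. *ARG1* was described after its values were seen. Neither the order of its values within each locus nor this difference in place was tested or counted over all genes.

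Of the 8 lysine genes 3 were higher and 5 lower, with a median of -0.02 (-0.19 without centring). *LYS1*, saccharopine dehydrogenase at the last step, had 2.22, 2.35, 1.95 and 2.12 in YAC libraries, against 2.16, 2.30, 1.91 and 1.98 in integrated libraries (0.23, SE 0.07, adjusted p = 0.256). *LYS4*, homoaconitase, had the smallest difference (-0.01, 95% interval -0.19 to 0.17). *LYS20* and *LYS21* encode the homocitrate synthase isozymes and are 88.2% identical in bases, so reads may be shared between them. *LYS21* had 2.32, 2.32, 1.74 and 2.43 in YAC libraries, against 2.37, 2.09, 1.97 and 2.26 in integrated libraries (0.19, adjusted p = 0.335). *LYS20* had 1.76, 1.96, 1.75 and 2.18, against 2.27, 2.05, 2.22 and 2.29 in integrated libraries (-0.04, adjusted p = 0.833). The summits of the highest *LYS20* peaks lay at 1539 and 2258 bp in synHPRT1 YAC replicates 1 and 2, beyond the gene. In synHPRT1R YAC replicate 2 and in replicate 1 of both integrated strains they lay at -378 to -372 bp, upstream of the window. All these values belong to peaks centred outside the window. Counting any peak and not only the highest, a *LYS20* summit lay in the window in 5 of 8 libraries. The difference between the isozymes was not tested.

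Aspartate is carried to threonine by *HOM3*, *HOM2*, *HOM6*, *THR1* and *THR4*. Of these 5 genes 4 were higher, with a median of 0.11 (-0.06 without centring). *HOM6* had the largest difference (0.16, 95% interval -0.03 to 0.34) and *THR1* the smallest (0.02, 95% interval -0.16 to 0.20). The window of *HOM3*, aspartate kinase, was covered over 35.7%, 37.3%, 40.1% and 37.1% in YAC libraries, against 31.0%, 31.0%, 25.6% and 19.2% in integrated libraries. All YAC values lay above (10.9 points, SE 2.73, adjusted p = 0.324), and the gene was named after its values were seen.

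Serine synthesis begins with the 3-phosphoglycerate dehydrogenase isozymes *SER3* and *SER33*, which are 82.7% identical in bases. *SER33* was marked in all 8 libraries, at 2.14, 2.07, 1.95 and 2.26 in YAC libraries, against 2.53, 2.52, 2.27 and 2.16 in integrated libraries (0.01, 95% interval -0.14 to 0.16). *SER3* had a peak in 3 libraries only, at 1.39 and 1.82 in synHPRT1R YAC replicates 1 and 2, against 1.76 in synHPRT1 integrated replicate 2, and covered at most 22.3% of the window (difference 5.43 points, adjusted p = 0.783). *SER2*, phosphoserine phosphatase, had the largest height difference of the list (0.14, 95% interval -0.01 to 0.29). The 3 testable serine genes had a median of 0.10 (-0.08 without centring).

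Ammonium is assimilated by *GDH1*, *GLN1* and *GLT1*, and asparagine made by *ASN1* and *ASN2*. Of the 4 testable genes 2 were higher and 2 lower (median -0.02, and -0.19 without centring). *GLN1*, glutamine synthetase, had low peaks of 1.58, 1.39 and 1.41 in YAC libraries, against 1.33, 1.46 and 1.40 in integrated libraries, and none in synHPRT1R YAC replicate 1 and synHPRT1 integrated replicate 2 (covered share difference -0.44 points, adjusted p = 1.0). *GDH1*, the main glutamate dehydrogenase for biosynthesis, was covered over 40.5%, 31.5%, 41.5% and 34.1% in YAC libraries, against 50.5%, 46.4%, 44.9% and 50% in integrated libraries. It was the only member with all YAC values below in covered share (-11.1 points, SE 2.90, adjusted p = 0.338), as were 4.95% of all genes, and was named after its values were seen. *GLT1*, glutamate synthase, had a height difference of 0.15 (95% interval -0.05 to 0.35). The asparagine synthetase genes, 81.0% identical in bases, had height differences of 0.01 for *ASN2* (95% interval -0.15 to 0.16) and -0.06 for *ASN1* (95% interval -0.20 to 0.09).

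*GCN4* had heights of 1.88, 1.88, 1.49 and 2.14 in YAC libraries, against 1.92, 1.74, 2.04 and 1.84 in integrated libraries, and the groups overlap (0.14, 95% interval -0.04 to 0.32, adjusted p = 0.492). The 26 members with TGACTC in the promoter had a median difference of 0.08, with 21 of 26 higher, and the 23 testable members without it 0.03, with 12 of 23 higher. This is a description and was not tested.

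The locus was compared over both contexts. Between synHPRT1R and synHPRT1 libraries 0 of 49 members passed, with 0.0% of all genes called, and 3 members had an unadjusted p under 0.05 (*MET6*, *ARG1* and *HIS6*), as did 2.9% of all genes. The context difference depended on the locus at 0 of 49 members, against 0.198% of all genes, and 4 had an unadjusted p under 0.05 (*HIS4*, *LYS4*, *ARO4* and *MET10*), as did 9.6% of all genes. All 4 were lower in synHPRT1R (5.07% of all genes, with 4.53% higher).

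Other genes of the same pathways, their regulators and the amino acid permeases were counted in 7 lists of 73 genes: 1 histidine, 4 arginine, 2 aromatic, 13 sulfur and 15 nitrogen genes, 19 regulators and 19 permeases. None of 55 testable genes passed in height (lowest adjusted p = 0.138) and none of 65 in covered share. By presence 1 of 73 was called, *CHA1*, a serine and threonine deaminase that degrades these amino acids, with no peak in any YAC library and heights of 3.90, 3.60, 3.29 and 3.55 in integrated libraries, whose summits lay nearest to the divergent *VAC17*. In the leucine branch 1 of 13 genes passed in covered share, *LEU2*, which the YAC vector carries and BY4741 lacks, covered over 99.2% ± 0.65 in YAC libraries and 0.0% in integrated libraries (SD, n = 4 each).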

How the data were processed

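Reads were processed by the authors, who, as the labels and methods state, trimmed adapters, aligned read pairs with Bowtie2 2.2.9 to sacCer3 with the synthetic locus added (a contig of its own in all 8 lists), and called peaks in each library on its own with MACS2 2.1.0, keeping duplicates and naming no control. Each deposited list holds, per peak, its fold enrichment (a ratio over the local background), its summit, and −log10 of the p-value and of the q-value. Without a control library, regions rich in fragments for other reasons can be called. The lists hold no read totals. Fragments at a summit were solved from the deposited fold and −log10 p.

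Gene positions, with the start codon as start, were those of RefSeq for sacCer3. Heights (log2, centred on each library's median gene) and covered shares were tested with limma 3.58.1 in R 4.3.3 (lmFit, eBayes; locus and context as terms) over all genes with a peak in all 8 libraries, or in at least 1 for covered share, with Benjamini-Hochberg adjustment and a threshold of 0.05. Simulated data for 4040 genes held 67 genes changed by 0.25 (log2), 67 by 0.5 and 66 by 1. Of changes of 0.5, 79.1% were recovered, and of changes of 0.25, 26.9%, with 7 false calls. For covered share (5196 genes) 61.2% of changes of 20 points were recovered. The simulated noise was independent between genes, and many changed genes ease the adjusted threshold. In the real data 1 of 4040 genes passed in height, so these shares may overstate the power there. The members and lists were chosen with earlier results of these data known. Genes given with values were those without a peak in some library, those with the largest and smallest height difference of each list, *GCN4* and 4 gene pairs, and the others were chosen after their values were seen. The alternatives changed the scaling, the window, the peak filter, the model terms and the libraries used. The 8 libraries made with IgG were not analysed here.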

Additional observations from a re-analysis of the deposited data

Results flagged for a closer look

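Among 96 groups of 4 libraries (height and covered share in 2 contexts, for the 27 genes named by rule and not for those added after their values were seen), 13 had a library apart from the other 3 by more than Dixon's critical share of the range. Chance flags about 1 in 20 groups, and groups with tied values are flagged easily. In covered share, *HIS1* had 3.66% in synHPRT1R YAC replicate 1 (60.7% to 63.9% in the other YAC libraries), and *ARG4* had 18.2% in the same library (41.6% to 42.8%). *ARG3* had 5.09% in synHPRT1 YAC replicate 1 (6.16% in the others) and *SER2* 80% there (whole window), and *ASN2* had 62.2% in synHPRT1 YAC replicate 2 (47.2% to 49.5%). Among integrated libraries, synHPRT1 replicate 1 had 18.1% at *ARO7* (0.0% in the others), 38.0% at *ARG8* (45.2% to 45.6%) and 34.4% at *GCN4* (64.2% to 68.5%). In synHPRT1 integrated replicate 2, *SER3* had 11.4% (0.0%) and *MET16* was covered over its whole window, 100% (77.7% to 79.6%), and in synHPRT1R integrated replicate 1 *SER2* had 84% (whole window). In centred log2 height, *ASN1* stood at 0.13 in synHPRT1R YAC replicate 2 (0.00 to 0.01 in the other YAC libraries) and *LYS1* at -0.18 in synHPRT1 integrated replicate 2 (-0.37 to -0.34).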

How the results depend on the processing

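The count of members that passed was 0 in all main comparisons and stayed 0 under the alternatives, except where *MET6* passed in height without synHPRT1R integrated replicate 1 (range 0 to 1 with 1 library left out), *MET6* and *ARO4* in synHPRT1 libraries alone (2), *TRP5* in covered share without synHPRT1R integrated replicate 1 (range 0 to 1), and *MET2* by presence with a −log10 q of at least 10 (1). Differences were *MET6* 0.59 and 0.54 and *ARO4* 0.52. Over all genes, height calls numbered 1, and 71 (all lower) without centring, 0 with quantile normalisation, 0 from summit fragments over the genome-wide background, 16 with absent peaks set to the lowest fold, 0 with the summit in the window, 4 with at least 50% of the peak in the window, 0 with a replicate block, 33 in synHPRT1 and 0 in synHPRT1R libraries alone, and 0 to 11 (without synHPRT1R integrated replicate 1) with 1 library left out. Covered share calls numbered 37, and 24 with a replicate block, 13 among genes with a peak in all 8 libraries, 6 there after centring (chosen after seeing the data), 131 in synHPRT1 libraries alone and 20 (without synHPRT1 integrated replicate 1) to 45 with 1 library left out. Interaction calls numbered 8, 3 with quantile normalisation and 0 to 38 (without synHPRT1R YAC replicate 2) with 1 library left out, locus calls 0, and 0 to 2 (without synHPRT1 YAC replicate 1), and presence calls 24, and 27 to 39 (without synHPRT1R YAC replicate 2). Deviations of same-numbered replicates from their group means had correlations of -0.19 to 0.11. These cannot tell whether such replicates shared a batch. The replicate block changed no call of a member. Only 30 members could be tested in height with the summit in the window, 31 with at least 50% of the peak in it and 33 with the stricter q. Signs of uncalled differences changed in 42 of 395 values for height and 64 of 426 for covered share. The 103 to 461 fragments at a summit limit single libraries. The study's reporting summary gives read totals per library, which were not used here.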
